A study of Homo sapiens with 9 samples.

Results

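The genes described here are PEG10, its neighbour SGCE on chromosome 7, and 7 further names from the family of human genes that descend from the gag gene of an ancient retrotransposon: RTL5, RTL6, RTL8A, RTL8B, RTL8C, RTL10 and LDOC1. They were chosen by symbol, and 8 of the 9 were found among the 16586 genes of the deposited table. RTL8B was not among them, so only its sequence is described and not its expression. PEG10 was picked because it had differed between the groups in an earlier look at these values, so its levels are given as a description with no test. The others were added for kinship or position, but with earlier results of these data known. Their tests are given, though not as tests of a list chosen independently of these values. Expression was measured by RNA-seq in Z138, an established mantle cell lymphoma line. The labels give 3 genotypes: WT, SOX11KO, in which the transcription factor gene SOX11 was knocked out, and SOX11KO+SOX11Rescue, in which SOX11 was returned to knockout cells. They are called wild type, knockout and rescue below, each with 3 libraries, 1 from each of 3 batches. All 9 were grown in RPMI-1640 with fetal bovine serum. The sources used here do not say whether the knockout or the rescue is a single clone, how SOX11 was returned, or whether libraries came from separate cultures, so p-values measure only the spread between these libraries.

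PEG10 is an imprinted gene, expressed from the paternal allele, and is needed for the placenta to form in mice. Its mRNA carries the remains of a retroviral gag and pol, and ribosomes that slip back by 1 base read through from the gag-like frame into the pol-like frame. The gag-like protein can assemble into virus-like particles. SGCE encodes epsilon-sarcoglycan, a membrane protein of the dystrophin-associated complex. It lies head to head with PEG10 and is likewise expressed from the paternal allele. The RTL genes and LDOC1 kept parts of the same kind of gag. RTL5, RTL8A, RTL8C and LDOC1 are X-linked, and RTL6 and RTL10 lie on chromosome 22.

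The frameshift site is shown first, because a count per gene adds up both PEG10 proteins' reading frames and cannot tell them apart. In the longest annotated coding transcript (PEG10-202, GENCODE release 29, GRCh38, plus strand, chr7:94664480-94664546) the gag-like frame has 325 codons, and the heptamer in capitals, at coding base 954, occurs once in the annotated coding part. From it the shifted frame runs for 390 codons to its stop.
PEG10 frameshift site: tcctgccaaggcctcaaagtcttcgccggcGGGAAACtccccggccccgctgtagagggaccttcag

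The RTL8 genes are near copies, which bears on how far their reads can be told apart. Over the 342 coding bases of each in GENCODE release 29, RTL8A was 96.5% identical to RTL8B and 95.3% identical to RTL8C. Of the 293 windows of 50 bases (the read length in the labels) in the RTL8A coding sequence, 70 also occurred in RTL8B and 0 in RTL8C, and RTL8B and RTL8C shared 6 (2.0%). Parts of the RTL8A and RTL8C counts could therefore belong to RTL8B, whereas no such window was common to the coding parts of RTL8A and RTL8C. Their longest coding transcripts have 1244 and 1181 bases, and the bases outside the coding parts were not compared. How far the RTL8A and RTL8C counts can be told apart is therefore not settled here.

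RTL6 and RTL5 are the members called lower on knockout and higher again on rescue, and the sequence before their starts is shown for that reason. The RefSeq promoter table (GRCh38.p14, 250 bases before to 50 after each start) held 6 of the 9 named genes. In the runs below, capitals mark GGGCGG, the core of an SP1 site, and ACAAAG, a core bound by SOX factors, each searched on both strands. The RTL6 run is chr22:44498299-44498483 and the RTL5 run is chrX:72131916-72132165, both on the minus strand and both limited to bases before the starts in RefSeq and GENCODE.
RTL6: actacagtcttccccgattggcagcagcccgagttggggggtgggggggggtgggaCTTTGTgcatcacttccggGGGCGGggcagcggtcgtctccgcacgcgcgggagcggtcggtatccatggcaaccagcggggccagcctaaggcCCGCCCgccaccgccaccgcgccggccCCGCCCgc
RTL5: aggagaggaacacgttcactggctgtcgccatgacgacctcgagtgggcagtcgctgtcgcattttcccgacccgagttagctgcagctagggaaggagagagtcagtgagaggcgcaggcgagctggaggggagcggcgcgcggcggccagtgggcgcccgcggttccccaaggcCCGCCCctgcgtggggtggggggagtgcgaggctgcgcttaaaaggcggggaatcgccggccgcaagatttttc
In the full 300-base windows RTL6 held 6 matches to GGGCGG and 2 to ACAAAG, and RTL5 held 1 and 0. Of 27305 promoters of this length, 44.6% held GGGCGG and 16.0% held ACAAAG. RTL8A and LDOC1 also held 1 match to ACAAAG each. ACAATG (11% of all promoters), the E-box CACGTG (7.4%) and the E2F-type TTTCCCGC (1.7%) were in none of the 6 windows, and CCAAT (35.7%) was in that of RTL6 alone, once. The 6 windows were all rich in G and C, between 65.3% (RTL8B) and 77.7% (RTL6), against a median of 58.3% over all promoters. A match of letters is a description and not a bound site.

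Levels are given as normalized counts, recovered from the deposited log2 values, with means ± SD over n = 3 libraries per group. Depth was estimated at 30813041 to 40788223 reads per library. SOX11 itself averaged 3549 ± 474 in wild type, 1033 ± 262 after knockout and 13130 ± 627 after rescue, so the knockout libraries still held SOX11 transcript and the rescue libraries held more than wild type. All 9 markers of B cells and mantle cell lymphoma that were looked up, among them CD79A, PAX5 and CCND1, were present, with a summed level per library of 7990 to 8850 CPM (wild type), 9050 to 10000 CPM (knockout) and 7330 to 7920 CPM (rescue). Of 12 listed markers of other lineages, 10 were in the table. They summed to 48.6 to 56.5 CPM (wild type), 57.1 to 63.3 CPM (knockout) and 38.8 to 44.2 CPM (rescue). The collagen gene COL1A1 had the highest level of them in each group, at means of 1110, 1125 and 779.9 normalized counts. Without CD74, the invariant chain of MHC class II, the other 8 B cell markers summed to 4950 to 5380 CPM (wild type), 4640 to 5000 CPM (knockout) and 4440 to 4650 CPM (rescue). CD74 was called higher in the knockout (1.43-fold, adjusted p = 0.00163) and lower in the rescue against it (1.53-fold, adjusted p = 3.41e-04), as was the endothelial and leukocyte marker PECAM1 (1.66-fold, adjusted p = 0.0142, and 2.81-fold, adjusted p = 2.03e-04), whose knockout call was lost without wild-type replicate 1, batch 1 or batch 3 (adjusted p up to 0.131). PAX5 was called higher and the collagen gene COL1A1 lower in the rescue against the knockout, and CCND1 lower in the rescue against wild type. Their adjusted p-values in limma were 0.0231, 0.0244 and 0.0411 with all libraries, and each call was lost when single libraries were left out. Over the 20 alternatives tried, the adjusted p-values ran from 6.85e-06 to 0.159, 0.0145 to 0.157 and 0.0108 to 0.331, in the same order. With the replicate number as a block in limma, PAX5, EBF1 and CD79B were also lower in the knockout than in wild type (adjusted p = 0.00011, 0.00156 and 0.0316). CD22 and the T cell marker CD3G were higher there (adjusted p = 0.00941 and 0.0484). Over all tested genes the block raised the calls in this comparison from 1470 to 2481. The part of these markers in the results below was not tested. In bulk RNA, fewer cells expressing a gene and less of its RNA per cell cannot be told apart. The knockout libraries stand in both the comparison with wild type and the comparison with the rescue, so those comparisons are not independent. A gene was called at an adjusted p under 0.05 in limma, adjusted over the 11542 genes tested. Differences marked as log2 are on the deposited scale, which understates the change of genes with low counts. Folds are ratios of group means of normalized counts.

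**Figure D1:**
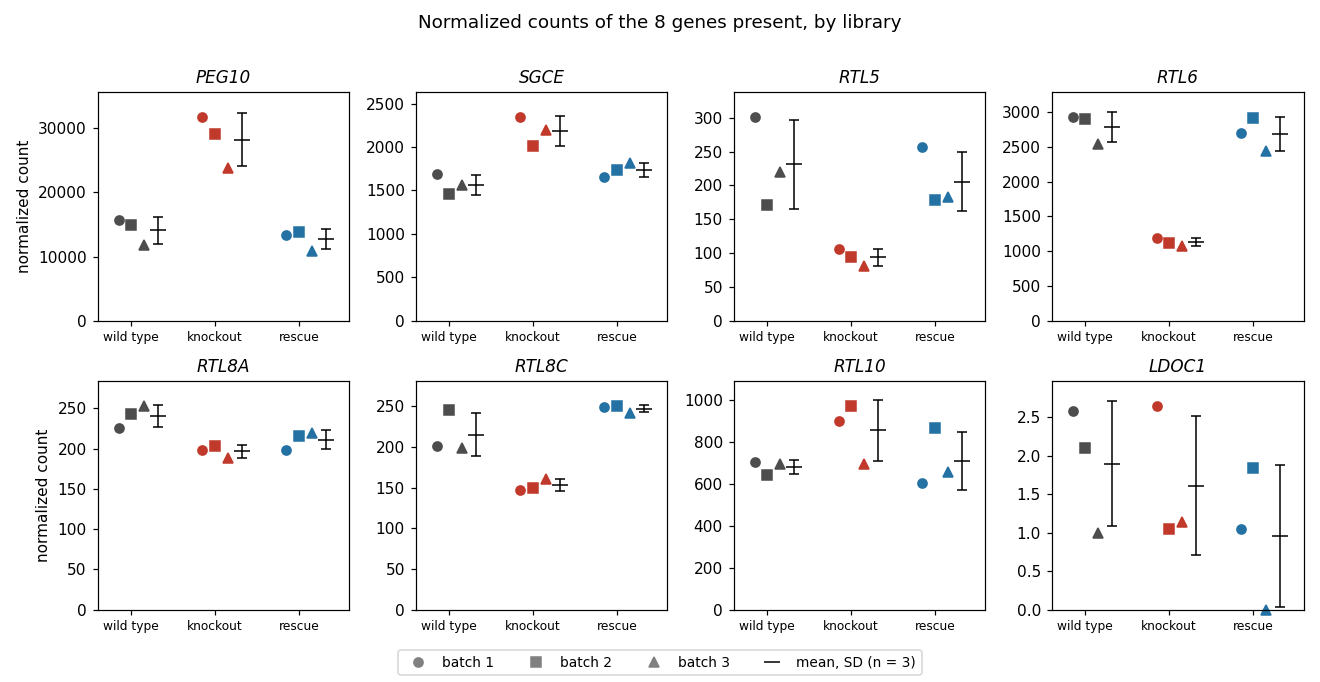
Normalized count (vertical axis, from 0) of each of the 8 genes in the 9 libraries, by group, with 1 symbol per batch and the mean ± SD (n = 3) beside each group. PEG10 and SGCE sit highest in the knockout, and RTL5, RTL6 and RTL8C sit lowest there.

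PEG10 (ENSG00000242265.5, chromosome 7, 94656325 to 94669695, plus strand) stood highest after knockout and close to its wild-type level after rescue. Its normalized counts were 15716, 14943 and 11751 in wild type, 31800, 29144 and 23802 after knockout and 13412, 13841 and 10909 after rescue. The knockout libraries all lay above every other library, and the wild-type and rescue libraries overlapped. The means were 14137 ± 2102, 28249 ± 4074 and 12721 ± 1583, or 401.5, 801.4 and 364.8 CPM. The knockout mean was 2.00 times the wild-type mean and 2.22 times the rescue mean. Within batches the knockout was 2.02-fold, 1.95-fold and 2.03-fold above wild type in batches 1, 2 and 3, so the fold varied little although the level did. Batch 3 gave the lowest PEG10 count in each of the 3 groups. The rescue lay 1.17-fold, 1.08-fold and 1.08-fold below wild type in the 3 batches.

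SGCE (ENSG00000127990.19, chromosome 7, 94524204 to 94656572, minus strand), the epsilon-sarcoglycan gene, moved in the same direction as PEG10 but by less. Its counts were 1686, 1455 and 1560 in wild type, 2349, 2010 and 2197 after knockout and 1651, 1732 and 1812 after rescue. The knockout libraries lay above all others, and wild type and rescue overlapped. SGCE rose 1.40-fold in the knockout (log2 difference 0.35, SE 0.061, adjusted p = 0.00275) and fell 1.26-fold in the rescue against the knockout (log2 difference -0.25, adjusted p = 0.0134). The rescue and wild type differed by 0.10 on the log2 scale (95% interval -0.03 to 0.24, adjusted p = 0.447). The rise lost its call without batch 3 (adjusted p = 0.0746). The fall lost its call without knockout replicate 1 (adjusted p = 0.0649), rescue replicate 1 (adjusted p = 0.0512), batch 1 (adjusted p = 0.165) or batch 3 (adjusted p = 0.114).

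The ratio of PEG10 to SGCE counts was 9.32, 10.3 and 7.53 in wild type, 13.5, 14.5 and 10.8 after knockout and 8.12, 7.99 and 6.02 after rescue. In each batch the knockout had the highest ratio and the rescue the lowest. The annotated genes overlap by 248 bases at their starts on opposite strands. The labels name both a stranded and an unstranded kit without saying which library had which, so reads from the overlap cannot be assigned with certainty.

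**Figure D2:**
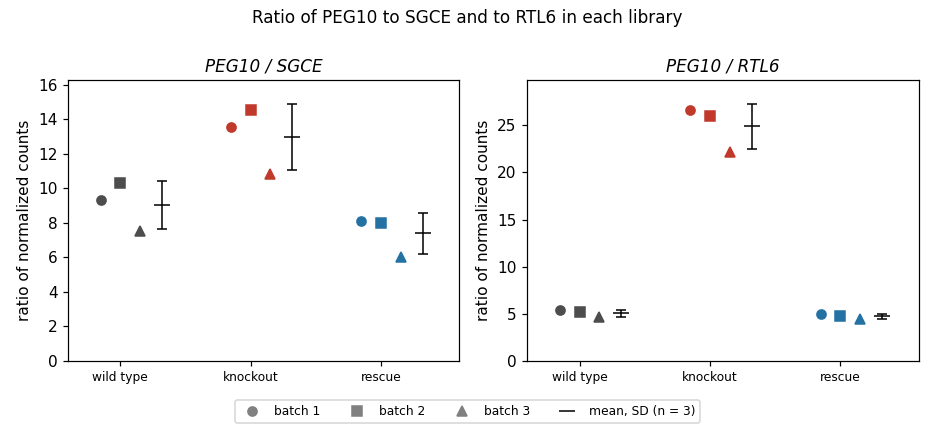
Ratio of normalized counts (vertical axis, from 0) of PEG10 to SGCE (left) and of PEG10 to RTL6 (right) in each library, by group, with 1 symbol per batch and the mean ± SD (n = 3). PEG10 over SGCE was highest in the knockout, at 10.8 to 14.5, and PEG10 over RTL6 was 22.1 to 26.6 there against 4.48 to 5.36 in the other 6 libraries. Both ratios are descriptions, since PEG10 was picked for its change.

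Of the 16 genes looked up on this stretch of chromosome 7, 9 were in the table and 5 passed the filter on low values, PEG10 and SGCE among them. The other 3 were not called by limma in the knockout against wild type, where 12.7% of all tested genes were, so a count of 0 among so few says little about the neighbourhood. CASD1, which adds acetyl groups to sialic acids and overlaps SGCE on the opposite strand, averaged 1364 ± 271 in wild type, 1461 ± 84.3 after knockout and 1590 ± 171 after rescue, and passed in no comparison (adjusted p = 0.659 for the knockout against wild type). BET1, a vesicle transport protein, averaged 979.9 ± 227, 1161 ± 136 and 1025 ± 84.7 and also passed in none (adjusted p = 0.329 for the knockout against wild type). PON2, a lactonase, had a different pattern: 555.7 ± 28.3 in wild type, 571.6 ± 17.7 after knockout and 1017 ± 19.7 after rescue. PON2 was 1.78-fold higher in the rescue than in the knockout (adjusted p = 4.27e-05) and 1.83-fold higher than in wild type (adjusted p = 1.56e-04). ASB4, COL1A2, GNGT1 and DYNC1I1 did not pass the filter and stayed at or below 17.01 normalized counts in each library.

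RTL6 (ENSG00000188636.4, chromosome 22, 44492572 to 44498298, minus strand), which encodes a small gag-like protein, showed the largest tested log2 difference among the members, opposite in direction to that of PEG10. As a fold, its fall in the knockout (2.464) was close to that of RTL5 (2.458), which has lower counts. Its counts were 2933, 2896 and 2537 in wild type, 1196, 1123 and 1076 after knockout and 2702, 2921 and 2437 after rescue. The knockout libraries lay below all others with a wide gap, and wild type and rescue overlapped. RTL6 fell 2.46-fold from 2788 ± 219 to 1132 ± 60.6 in the knockout (log2 difference -0.95, SE 0.0668, adjusted p = 5.64e-06). It rose 2.37-fold to 2687 ± 243 in the rescue (log2 difference 0.90, adjusted p = 4.69e-06). The fall was 2.45-fold, 2.58-fold and 2.36-fold within batches 1, 2 and 3. The rescue differed from wild type by -0.04 on the log2 scale (95% interval -0.19 to 0.10, adjusted p = 0.81). Both calls were kept in each of the 20 alternatives tried, with adjusted p-values of at most 0.00134. The promoter run of RTL6 is printed above, and GENCODE has no other gene overlapping RTL6. Relative to RTL6, PEG10 averaged 5.05 ± 0.376 in wild type, 24.9 ± 2.41 after knockout and 4.73 ± 0.243 after rescue. This ratio is a description only, because PEG10 was picked for its change and RTL6 had the largest log2 difference in the opposite direction.

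RTL5 (ENSG00000242732.4, chromosome X, 72127110 to 72131901, minus strand), another gag-derived gene, changed in the same direction as RTL6 at a lower level. Its counts were 301, 171 and 220 in wild type, 106, 94.8 and 81.2 after knockout and 256, 178 and 182 after rescue. Knockout libraries were again below all others, and the wild-type libraries were widely spread. RTL5 fell 2.46-fold in the knockout (log2 difference -0.38, SE 0.076, adjusted p = 0.0068) and rose 2.19-fold in the rescue (log2 difference 0.32, adjusted p = 0.0109). Both calls were lost without batch 3 (adjusted p = 0.117 and 0.121). The rescue differed from wild type by -0.06 on the log2 scale (95% interval -0.22 to 0.11, adjusted p = 0.785). The whole of RTL5 lies inside NHSL2 on the opposite strand. NHSL2 was too low to be tested, at 25.3 to 35.5 normalized counts in wild type, 9.74 to 13.9 after knockout and 14.9 to 36.5 after rescue, and its part in the RTL5 result was not tested.

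RTL8A and RTL8C, the X-linked near copies described above, encode short gag-like proteins. RTL8C (ENSG00000134590.14, chromosome X, 135032366 to 135033546, plus strand) had counts of 201, 246 and 199 in wild type, 147, 150 and 161 after knockout and 249, 251 and 242 after rescue. The knockout libraries were below all others. RTL8C rose 1.62-fold in the rescue against the knockout (log2 difference 0.23, adjusted p = 0.0053), a call lost without batch 1 (adjusted p = 0.0777) or batch 3 (adjusted p = 0.0625). The knockout mean was 1.41-fold below wild type and just missed the threshold (log2 difference -0.16, adjusted p = 0.0504). It passed with the replicate block (adjusted p = 0.0361) and on both log2 CPM scales (adjusted p = 0.0396 and 0.041). RTL8A (ENSG00000203950.6, chromosome X, 135050932 to 135052196, minus strand) had counts of 226, 242 and 253 in wild type, 198, 203 and 188 after knockout and 198, 216 and 219 after rescue. Its knockout libraries lay below wild type, but the difference did not pass (log2 difference -0.10, 95% interval -0.20 to -0.00307, adjusted p = 0.175), nor did the rescue against the knockout (adjusted p = 0.628) or against wild type, where the libraries again did not overlap (1.14-fold lower, adjusted p = 0.518). Added together, RTL8A and RTL8C gave 427 to 489 in wild type, 345 to 353 after knockout and 447 to 467 after rescue, so the sum was lower in each knockout library than in the other 6.

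RTL10 (ENSG00000215012.9, chromosome 22, 19846138 to 19854896, minus strand), which encodes a gag-derived protein also described as a mitochondrial BH3-like protein, did not pass in any comparison. Its counts were 708, 644 and 697 in wild type, 904, 974 and 695 after knockout and 603, 869 and 660 after rescue. The groups overlapped throughout, and the knockout exceeded wild type in batches 1 and 2 by 1.28-fold and 1.51-fold but not in batch 3. The knockout against wild type differed by 0.18 on the log2 scale (95% interval -0.01 to 0.38, adjusted p = 0.217). The whole of RTL10 lies inside GNB1L on the same strand, and GNB1L averaged 451.8, 450.4 and 452.5 in the 3 groups. LDOC1 (ENSG00000182195.9, chromosome X, 141175745 to 141177125, minus strand), a nuclear leucine zipper protein often silenced in cancers, was at the limit of detection. It had about 3.0, 2.0 and 1.0 reads in the wild-type libraries, 3.0, 1.0 and 1.0 after knockout and 1.0, 2.0 and 0 after rescue. LDOC1 did not pass the filter on low values, and no difference was detectable at this depth, where a count of 0 allows up to 3 reads.

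Counted without PEG10, 6 members were tested. In the knockout against wild type 1 rose (SGCE) and 2 fell (RTL5 and RTL6), beside calls for 12.7% of all tested genes (5.36% up, 7.37% down). In the rescue against the knockout 3 rose (RTL5, RTL6 and RTL8C) and 1 fell (SGCE), beside calls for 22.1% of all tested genes (11.5% up, 10.7% down). In the rescue against wild type 0 were called by limma, with 0 at an unadjusted p under 0.05, beside calls for 4.07% of all tested genes (2.30% up, 1.78% down). SGCE, RTL5 and RTL6 were called on knockout and then called with reversed sign on rescue, as were 9.70% of all tested genes. The knockout and wild-type libraries did not overlap for SGCE, RTL5, RTL6, RTL8A and RTL8C, which was so for 29.5% of all tested genes. Rescue and knockout libraries did not overlap for SGCE, RTL5, RTL6 and RTL8C (41.8% of all tested genes), and rescue and wild-type libraries for RTL8A (20.8%). The median log2 difference over the 7 tested members, PEG10 included, was -0.10 for knockout against wild type and 0.04 for rescue against knockout, beside 0.00482 and -0.00646 over all tested genes. The members thus moved in both directions.

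**Figure D3:**
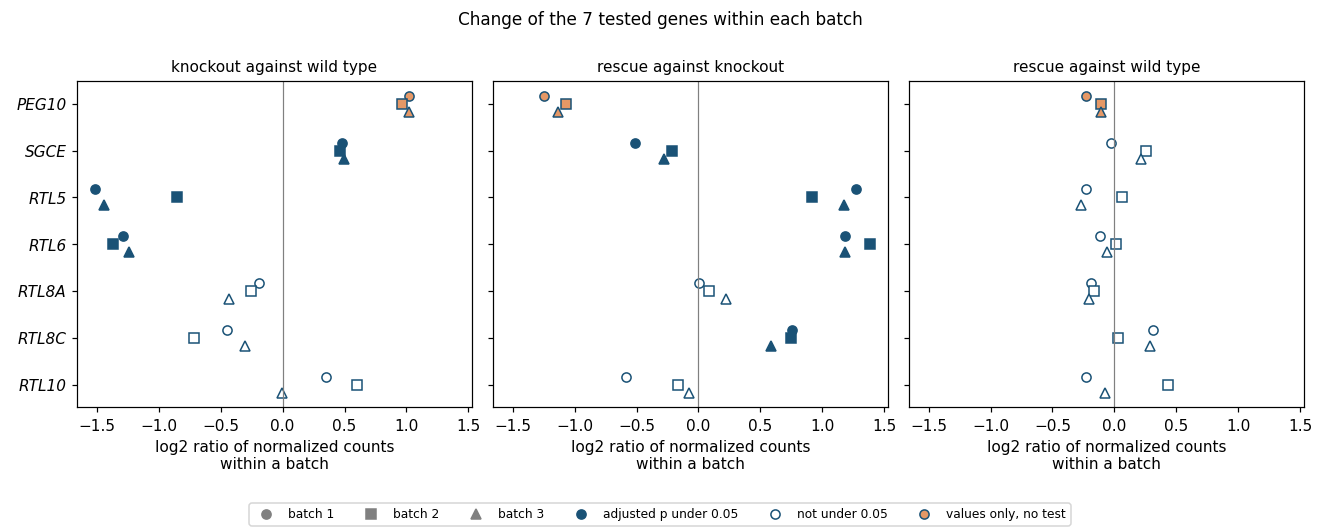
Log2 ratio of normalized counts within each batch (horizontal axis) for the 7 genes that passed the filter, 1 panel per comparison and 1 symbol per batch. Filled symbols mark genes called by limma, open symbols genes not called, and PEG10 is shown in orange without a test. RTL6 and RTL5 lie left of 0 in the knockout against wild type and right of 0 in the rescue against the knockout, and PEG10 and SGCE the other way.

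Levels between genes were compared as CPM per kb of the longest annotated coding transcript, since longer transcripts yield more reads. In wild type the order was PEG10 at 60.7 ± 8.70, RTL6 at 14.4 ± 1.03, SGCE at 12.8 ± 1.09, RTL8A at 5.49 ± 0.332, RTL8C at 5.18 ± 0.560, RTL10 at 2.86 ± 0.183, RTL5 at 1.6 ± 0.469 and LDOC1 at 0.0389 ± 0.0166 CPM per kb. RTL6 overlapped SGCE and RTL8A overlapped RTL8C over the 3 libraries, and the other neighbours did not overlap. In the knockout PEG10 stood at 121 ± 16.8 and SGCE at 17.9 ± 1.5, while RTL6 was at 5.85 ± 0.299, now below SGCE in each library. RTL8C and RTL10 overlapped there, at 3.67 ± 0.208 and 3.58 ± 0.574. In the rescue SGCE (14.3 ± 0.687) and RTL6 (14.0 ± 1.22) overlapped again, and RTL8C (6.01 ± 0.0916) lay above RTL8A (4.87 ± 0.265) in each library. The transcript in use was not measured, so these levels depend on the annotated lengths.

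**Figure D4:**
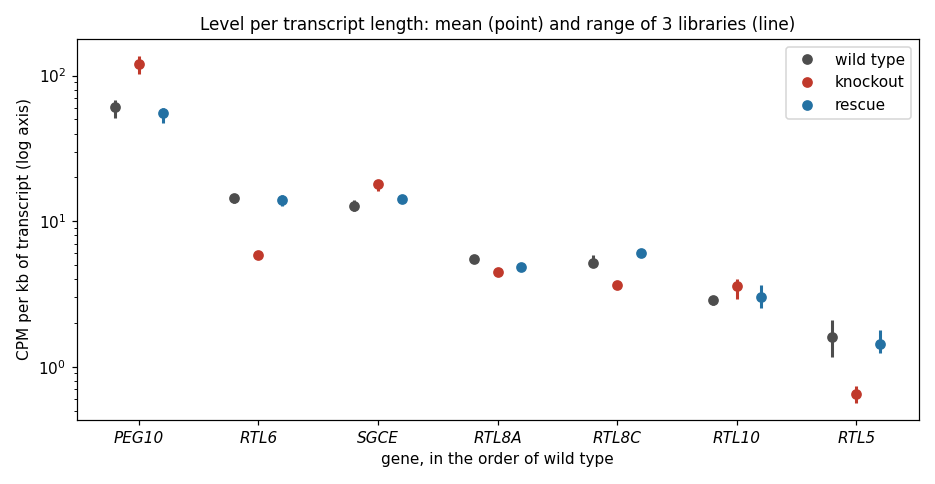
Level per transcript length in CPM per kb (vertical log axis) for 7 genes, ordered by their wild-type mean, with the mean as a point and the range of the 3 libraries as a line, coloured by group. PEG10 is highest in each group, at 60.7, 121 and 55.1 CPM per kb, and RTL6 drops from 14.4 to 5.85 in the knockout. LDOC1 is left out because 1 of its libraries is at 0.

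The genes most like PEG10 over the 9 libraries were found by Pearson correlation of deposited log2 values among the 11542 genes tested, as a description. Among the 5 most alike were GPI, an enzyme of glycolysis (r = 0.979), BCCIP (r = 0.974), the protease PCSK4 (r = 0.971) and the mitochondrial protein DNAJC11 (r = 0.967). GPI averaged 12140 ± 766 in wild type, 15100 ± 339 after knockout and 11850 ± 381 after rescue. The 5 most opposite were the TNF receptor family member TNFRSF19 (r = -0.987), the zinc finger gene ZNF695 (r = -0.979), the nucleotidase NT5C3B (r = -0.977), ETHE1 (r = -0.974) and NIPSNAP1 (r = -0.974). TNFRSF19 averaged 765.9 ± 116, 363.4 ± 59.3 and 808.7 ± 14.5. Among the members r with PEG10 was 0.811 for SGCE, with 687 tested genes higher, and 0.687 for RTL10, with 1515 higher. For RTL6 and RTL8C r was -0.88 and -0.876, with 11209 and 11185 of the 11542 tested genes higher. For RTL5 and RTL8A r was -0.76 and -0.623. The 9 points share groups and batches, so they are not independent.

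Of 23 other human genes derived from retroviral gag or related sequence, 14 were in the table and 10 were tested. In the knockout 4 of the 10 fell and 0 rose (0 higher also at an unadjusted p under 0.05), where 7.37% of all tested genes were lower. PNMA8A fell from 2054, 2213 and 2326 in wild type to 1522, 1628 and 1561 (1.40-fold, adjusted p = 0.00229), and its rescue counts were 1782, 1767 and 2056 (adjusted p = 0.052 against the knockout, and 0.0179 with the replicate block). PNMA8A kept its call in the knockout in all 20 alternatives. PNMA8B, at a low level, went from 77.0 ± 16.96 to 32.3 ± 11.8 in the knockout (2.38-fold lower, adjusted p = 0.0357) and to 78.8 ± 21.9 in the rescue (2.44-fold higher, adjusted p = 0.0212). NYNRIN, which holds a retroviral integrase-like part, fell 1.70-fold in the knockout from 265.8 ± 16.7 to 156 ± 49.3 (adjusted p = 0.0248). In the rescue NYNRIN, at 139.6 ± 24.2, was 1.904-fold below wild type (adjusted p = 0.0278) and was not called against the knockout (adjusted p = 0.713). PNMA1 fell 1.26-fold (adjusted p = 0.0463). The PNMA1 call was lost in 15 of the 20 alternatives, including each batch left out. The knockout call of PNMA8B was lost without wild-type replicate 1 or 3 or any knockout replicate (adjusted p up to 0.122), without batch 1 or 3 (0.204 and 0.164) or with quantile normalization (0.0706). Its rescue call was lost without knockout replicate 2 or rescue replicate 1 or 3 (adjusted p up to 0.0852), without batch 1 or 3 (0.133 and 0.13) or with quantile normalization (0.0558). The knockout call of NYNRIN was lost without wild-type replicate 1 or 3 or knockout replicate 1 or 2 (adjusted p up to 0.0862) or without batch 1 or 2 (0.218 and 0.0845). Its call in the rescue against wild type was lost without any 1 library of either group (adjusted p up to 0.117), without any batch (up to 0.235) or on the log2(CPM + 0.1) scale (0.055). PNMA2, MOAP1, GIN1, KRBA2, PNMA8C and ZCCHC18 were not called in any comparison. With the replicate block PNMA8C also passed, lower in the knockout (adjusted p = 0.0441) and higher in the rescue (adjusted p = 0.0418). In the rescue against the knockout PNMA8B was the 1 gene of the 10 called, where 11.5% of all tested genes were higher. The median log2 difference of the 10 was -0.13 for knockout against wild type and 0.11 for rescue against knockout, beside 0.00482 and -0.00646 over all tested genes.

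**Figure D5:**
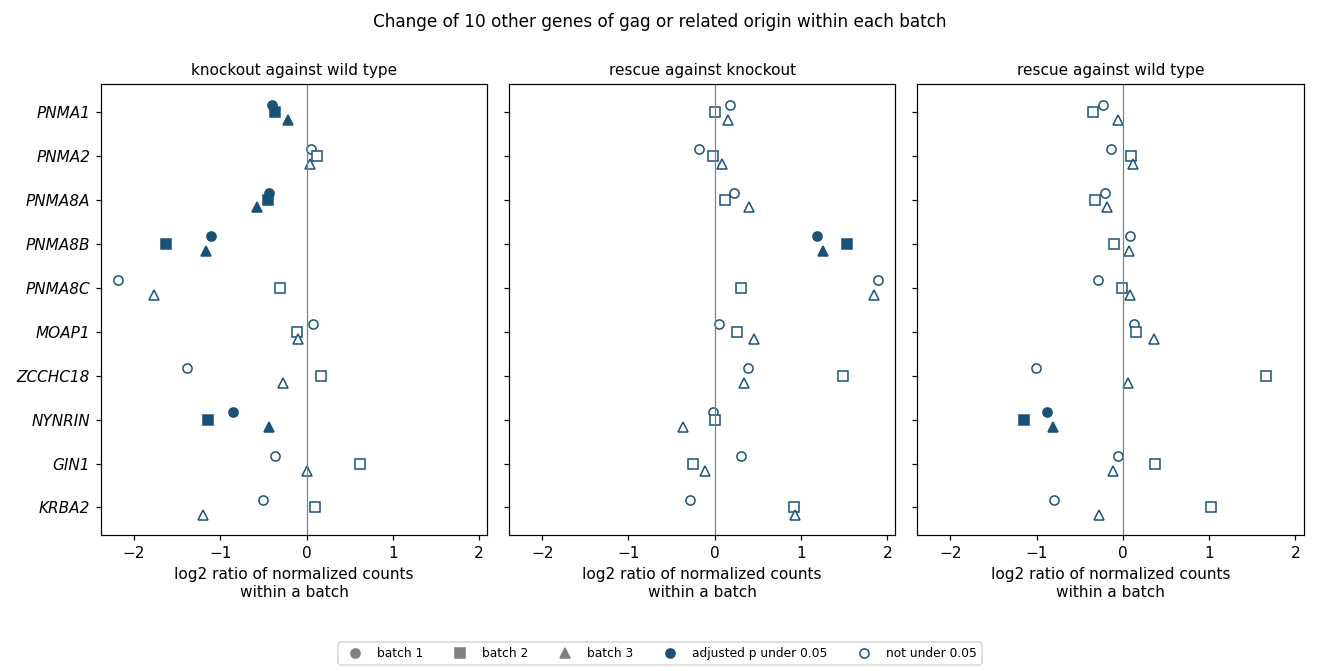
Log2 ratio of normalized counts within each batch (horizontal axis) for 10 other genes of gag or related origin, such as retroviral integrase, 1 panel per comparison and 1 symbol per batch, filled where limma called the gene. PNMA8A and PNMA8B lie left of 0 in all batches of the knockout against wild type, and NYNRIN lies left of 0 in the first and last panels.

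Other genes listed as imprinted were looked up to set PEG10 and SGCE beside them. Whether each of them, COPG2 included, is imprinted in these cells was not measured. Of 45 listed, 26 were in the table and 19 were tested. In the knockout 2 of the 19 fell and 0 rose, beside calls for 12.7% of all tested genes, a like share, with 5 lower and 0 higher at an unadjusted p under 0.05. COPG2, a coat protein gene next to MEST, fell 1.71-fold from 3536 ± 155 to 2070 ± 92.8 (adjusted p = 3.30e-05) and rose 1.85-fold to 3836 ± 254 in the rescue (adjusted p = 7.37e-06). SNRPN, which encodes a splicing protein and shares its transcripts with SNURF, fell 1.37-fold to 1272 ± 56.5 (adjusted p = 0.00133) and rose 1.48-fold to 1884 ± 54.5 (adjusted p = 1.76e-04). The SNRPN fall lost its call without batch 1 (adjusted p = 0.054), and SNURF was not called. In the rescue against the knockout 4 rose and 2 fell, where 22.1% of all tested genes were called. KCNK9, a potassium channel gene at a low level, rose 2.23-fold to 48.0 ± 9.97, and BLCAP and ZNF331 fell 1.26-fold and 1.28-fold. The KCNK9 call was lost in 8 of the 19 alternatives in which it was tested, and those of BLCAP and ZNF331 in 12 of 20 each. CDKN1C, an inhibitor of the cell cycle, rose 1.92-fold to 1742 ± 384 (adjusted p = 0.0176), a call lost without any of knockout replicates 1 and 2 or rescue replicates 1 and 3 (adjusted p at most 0.066) or without batch 1 (adjusted p = 0.14). In the rescue against wild type 0 of the 19 were called by limma, with 4 higher and 2 lower at an unadjusted p under 0.05. With the replicate block in limma, CDKN1C, GNAS and IGF2R were also lower in the knockout (adjusted p = 0.011, 0.0158 and 0.01). The block raised the calls over all 11542 tested genes as well, from 1470 to 2481 in this comparison.

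Genes that earlier work ties to PEG10 were described next. The ubiquilins shuttle proteins to the proteasome, and UBQLN2 is known to bind RTL8 and to limit PEG10 protein; USP9X is a deubiquitinase reported to stabilize PEG10, and UBE3A is a ubiquitin ligase. None of UBQLN1, UBQLN2, UBQLN4, USP9X and UBE3A was called by limma in any of the 3 comparisons, in which 12.7%, 22.1% and 4.07% of all tested genes were called, and USP9X alone had an unadjusted p under 0.05 (0.00639 against wild type and 0.0156 for the rescue against the knockout). USP9X averaged 4258 ± 363 in wild type, 3209 ± 384 after knockout and 4110 ± 706 after rescue, with an adjusted p of 0.0501 for the knockout against wild type and 0.0637 for the rescue against the knockout. Both passed with the replicate block (adjusted p = 0.0251 and 0.0359), and in 8 and 3 of the 20 alternatives in all. UBQLN2 averaged 1268 ± 180, 1227 ± 93.7 and 1368 ± 13.7. Of 11 genes listed for PEG10 transcription (among them MYC, the E2F family and RB1), 10 were tested and 0 were called by limma in the knockout against wild type, with 1 (MYC) at an unadjusted p under 0.05, beside calls for 12.7% of all tested genes. MYC averaged 35514 ± 1230 in wild type, 39721 ± 1806 after knockout and 27640 ± 1957 after rescue. MYC was 1.44-fold lower in the rescue than in the knockout (adjusted p = 1.35e-04) and 1.285-fold lower than in wild type (adjusted p = 0.00699), the latter lost without batch 2 (adjusted p = 0.0609) or batch 3 (adjusted p = 0.13). E2F3 rose 1.22-fold in the rescue against the knockout (adjusted p = 0.0469), a call lost in 12 of the 20 alternatives.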

How the data were processed

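RNA-seq was carried out on Z138 in 3 groups of 3 libraries. The submitters' processing notes name kallisto 0.46.1 beside Trimmomatic 0.40 and FastQC 0.11.9. The same notes list DESeq2 1.24.0, R 4.3.2 and GRCh38.p13. The deposited table holds log2 values, and all 9 libraries share the lowest value, 8.5985. The values were taken to be on a variance-stabilized scale, although the table is called log CPM. The closed form of that transform was inverted to give normalized counts and CPM. Low values of genes with a single transcript fell within 0.05 of whole multiples of 1 read's worth in 83.7% to 98.5% of cases, against 10% by chance, which gave the depth estimates. Floors cover counting error only.

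Genes with at least 1 CPM in at least 3 libraries were tested (11542 kept, 5044 not). The deposited log2 values of all 9 libraries were fitted by limma 3.58.1 under R 4.3.3 with a trended prior variance and Benjamini-Hochberg adjustment. The fit was tested on simulated data. The members and gene lists were chosen with earlier results of these data known. The genes named were the members, the detected neighbours of PEG10, called genes of each list (up to 6), the 5 genes most like and 5 most opposite to PEG10, and SOX11, except for items that are not reported here. The labels give each library a batch equal to its replicate number, which pairs the libraries: between libraries with 1 number, deviations from the group mean had correlations of 0.187 to 0.51. For each of the 9 libraries, the best match in the other groups had the same number. The main fit did not use this pairing, so its p-values ignore it. The replicate block was an alternative, beside no filter, a filter of 4 CPM, log2(CPM + 1), log2(CPM + 0.1), median centring, quantile normalization, fits without the third group, and fits without each library or each batch. Positions are from GENCODE release 29 (GRCh38).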

Additional observations from a re-analysis of the deposited data

How the results depend on the processing

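Over all tested genes, 1470 were called for the knockout against wild type, 2556 for rescue against knockout and 470 for rescue against wild type. With the replicate block these were 2481, 3601 and 930. Leaving out 1 library gave 938 to 1395, 1738 to 2970 and 230 to 427, with the lowest of the first without knockout replicate 1 and of the last without rescue replicate 3. Leaving out 1 batch gave 574 to 1264, 993 to 2156 and 111 to 249, from fewer libraries. Over the members and lists, 228 tests were made, and the block added 24 calls and ended none (24 changed in all). Of these, RTL8C was the 1 member, in the knockout against wild type. Those of PNMA8A, PNMA8C, CDKN1C, GNAS, IGF2R and USP9X are given above or concern IGF2R in the rescue against wild type (adjusted p = 0.0072). SGCB was higher in the rescue than in the knockout (adjusted p = 0.0337). The other 13 are of marker genes, and those in the knockout against wild type are named with the markers above. The log2 differences of PEG10 ranged from 0.84 to 1.08 in the knockout against wild type and from -1.22 to -1.0 in the rescue against the knockout. Small uncalled differences changed sign: RTL8A in the rescue against the knockout with quantile normalization (-0.0184), and the rescue against wild type for RTL5 without wild-type replicate 1 (0.0219, range over omissions -0.1239 to 0.0219), RTL6 without rescue replicate 3 (0.011, range -0.0966 to 0.011), and RTL10 without rescue replicate 2 (-0.0621) or batch 2 (-0.085, range -0.085 to 0.1012). The cause was not tested.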

Other observations

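SGCE belongs to the dystrophin-associated complex, and 9 of 16 listed genes of that complex were tested. DMD, which encodes dystrophin, fell 4.07-fold in the knockout, from 692.8 ± 104 to 170.4 ± 59.5 normalized counts (adjusted p = 1.11e-04), and rose 4.60-fold to 784.0 ± 136 in the rescue (adjusted p = 3.43e-05). Its counts were 578, 782 and 718 in wild type, 132, 239 and 140 after knockout and 659, 930 and 763 after rescue, and both calls were kept in the 20 alternatives. SGCB, the beta-sarcoglycan gene, rose 1.78-fold in the knockout (adjusted p = 0.00304) and was 2.24-fold above wild type in the rescue (adjusted p = 6.74e-04). The knockout call of SGCB was lost without batch 1 (adjusted p = 0.087). The other 7 tested genes of the complex, among them DAG1 and UTRN, were not called in any comparison. The calls were thus 2 of 9 for knockout against wild type, 1 for rescue against knockout and 1 for rescue against wild type, beside 12.7%, 22.1% and 4.07% of all tested genes.

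Of 8 genes derived from a retroviral env, 3 were tested. Of these, 1 (ERV3-1) was called on knockout and on rescue, where 12.7% and 22.1% of all tested genes were. ERV3-1 fell 1.55-fold in the knockout, from 539.3 ± 32.3 to 348.4 ± 8.67 (adjusted p = 0.00335), and rose 1.82-fold to 633.8 ± 52.5 in the rescue (adjusted p = 2.17e-04). The fall lost its call without batch 1 (adjusted p = 0.0715). ERVMER34-1 and ERVK3-1 were not called in any comparison. RTL3, an RTL gene that did not pass the filter on low values, had 0.862, 0 and 3.98 normalized counts in wild type, 12.4, 6.34 and 6.82 after knockout and 2.10, 7.35 and 1.08 after rescue. ZCCHC12, also outside the filter, had at most 2.59 in each wild-type and knockout library and 10.5, 22.1 and 14.1 in the rescue. RTL3 and ZCCHC12 were picked after their values were seen.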
